A study of Mus musculus with 9 samples.

Results

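The genes described here are the 10 genes of the mouse MHC class II pathway that were chosen by symbol from the 20926 genes of the expression table: the chain genes H2-Aa, H2-Ab1 and H2-Eb1, the invariant chain gene Cd74, the transactivator gene Ciita, and the peptide editor genes H2-DMa, H2-DMb1, H2-DMb2, H2-Oa and H2-Ob. All 10 were found in the table and all 10 passed the filter on low values, which kept 12366 genes. RNA was sequenced from the blood of 9 mice, 3 each in the Ctrl, CIA and CIA+THz groups. Every mouse was a male DBA/1 animal, given as 7 weeks old. The authors state this age for the division into groups, before the injections and the irradiation, and the age at blood sampling is not given. Ctrl mice were not irradiated and are not labelled as a CIA model, and whether they received adjuvant is not given in the sources used here. CIA mice had collagen-induced arthritis, a model in which chick type II collagen is injected with complete Freund's adjuvant and boosted with incomplete Freund's adjuvant, and were not irradiated. In CIA+THz mice, arthritis was induced likewise and the swollen ankles were exposed to 0.1 THz radiation for 30 min a day over 14 days under isoflurane, so that in the groups as described irradiation and anesthesia cannot be told apart. The samples are labelled blood leukocyte, while the RNA is described as total blood RNA.

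MHC class II molecules present peptides to CD4+ T cells and are made mainly by B cells, dendritic cells, monocytes and macrophages. An alpha and a beta chain assemble on the invariant chain, which carries them to endosomes, where proteases degrade it and H2-DM exchanges its remnant for antigenic peptides. H2-O, found mostly in B cells, holds H2-DM back. CIITA does not bind DNA itself but is recruited to the X and Y boxes of these genes' promoters, where the RFX complex and NF-Y sit, and its own transcription can be induced by interferon-gamma. Collagen-induced arthritis depends on the class II haplotype, and DBA/1 mice carry H-2q, in which collagen peptides are presented by the A molecule made of the H2-Aa and H2-Ab1 products.

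Promoter sequences, from 250 bases before to 50 bases after a gene's start, were at hand from RefSeq (GRCm38.p6, the C57BL/6 reference) for H2-Aa, H2-Eb1, H2-DMa, H2-DMb1, H2-DMb2, H2-Oa and H2-Ob. The windows below are shown because CIITA is known to act through the X and Y boxes, which were searched for in them. Capitals mark the core letters GNAAC of the X box and GATTGG of the Y box, 5′ to 3′ on the gene's strand.
H2-Aa (chr17:34287852-34287919, minus strand): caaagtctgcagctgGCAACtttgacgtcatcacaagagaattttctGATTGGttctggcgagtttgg
H2-Eb1 (chr17:34305761-34305827, plus strand): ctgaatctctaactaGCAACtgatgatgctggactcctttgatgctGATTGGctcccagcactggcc
H2-DMb1 (chr17:34153082-34153149, plus strand): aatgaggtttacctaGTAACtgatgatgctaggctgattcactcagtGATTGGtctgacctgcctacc
H2-Oa (chr17:34092288-34092355, plus strand): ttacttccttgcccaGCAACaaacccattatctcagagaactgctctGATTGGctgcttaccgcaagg
H2-Ob (chr17:34238803-34238867, plus strand): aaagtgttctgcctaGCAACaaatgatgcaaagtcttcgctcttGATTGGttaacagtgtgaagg
H2-DMb2 (chr17:34145111-34145178, plus strand): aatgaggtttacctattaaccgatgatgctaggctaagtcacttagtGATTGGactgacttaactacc

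The motif letters were chosen after these sequences had been seen. GNAAC lay 24 to 27 bases before GATTGG in H2-Aa, H2-Eb1, H2-DMb1, H2-Oa and H2-Ob, and the Y box letters ended 38 to 56 bases before the annotated start in these genes. The pair, searched on both strands with 15 to 35 bases between its parts, was present in 396 of 32851 promoters in the table, or 1.21%. GATTGG alone was in 16.1% and GNAAC alone in 84.9% of them. Neither of the 2 promoter windows of H2-DMa held the pair. H2-DMb2, aligned to H2-DMb1 by its Y box letters, differed from it at 9 of the 68 positions, and 1 of these, G16T (H2-DMb1 base, position from the 5′ end of the window, H2-DMb2 base), fell in the X box letters. A match to these letters describes the sequence and says nothing of binding, and DBA/1 alleles may differ from the reference.

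Expression was given as FPKM, a fragment count scaled by transcript length and library total, which allows levels of different genes to be compared per length. Each library was divided by 1 median-of-ratios factor (0.847 to 1.24), and all levels below are rescaled FPKM. Between 11801 and 12807 genes were above 0 in a library, the read depth behind the FPKM is unknown, and Alas2, an erythroid gene, took 11.4% to 16.7% of the summed FPKM, lowest in the CIA+THz libraries. The 10 class II genes took 0.245% to 0.381% of the summed FPKM in Ctrl, 0.377% to 0.533% in CIA and 0.557% to 0.672% in CIA+THz. With Alas2 left out of the sum, these shares were 0.290% to 0.445%, 0.451% to 0.637% and 0.643% to 0.767%. After rescaling, the summed level of the members was 2000 to 2919 in CIA and 2357 to 3019 in CIA+THz, so that these groups overlapped.

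Cd74 was by far the most abundant member, with a mean of 1635 over the 9 libraries and a rank between 23 and 58 among all genes of its library. It was followed by H2-Aa (297) and H2-Ab1 (147), the chains of the A molecule. H2-Ob (50.5), H2-DMb2 (45.0), H2-DMa (31.5), H2-DMb1 (22.4), H2-Oa (16.1) and Ciita (13.4) came next, and H2-Eb1 was lowest (7.83). The ranges over the 9 libraries were apart between Cd74 and H2-Aa and between H2-Ab1 and H2-Ob, and overlapped between all other neighbours in this order. Within a library the order was nevertheless kept for most neighbours: H2-Aa was above H2-Ab1, H2-DMb2 above H2-DMa, H2-DMb1 above H2-Oa and Ciita above H2-Eb1 in 9 of 9 libraries, whereas H2-Ob was above H2-DMb2 in 6 and H2-Oa above Ciita in 7. The low H2-Eb1 level is a level relative to the reference gene model, and H-2q and the reference haplotype both lack a surface E molecule.

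Levels of close relatives were read with caution. The transcripts of H2-DMb1 and H2-DMb2 were 94.1% identical over 1219 aligned bases, and 26.6% of the 50-base windows of the H2-DMb1 transcript occurred exactly in that of H2-DMb2, so the split of fragments between them is uncertain. No 50-base window was shared by H2-Ab1 and H2-Eb1, H2-Ab1 and H2-Ob, or H2-Aa and H2-Oa.

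In GENCODE on GRCm38, 8 members lie within 224 kb of chromosome 17 (34092340 to 34316674), in the order H2-Oa, H2-DMa, H2-DMb2, H2-DMb1, H2-Ob, H2-Ab1, H2-Aa and H2-Eb1. All of these but H2-Aa are on the plus strand. Ciita is on chromosome 16 (10480059 to 10528418), and Cd74 is on chromosome 18. The span of H2-DMa overlaps the opposite-strand gene Brd2, and that of Ciita overlaps Dexi. The library kit does not mark strand, so fragments from such overlaps cannot be told apart by strand.

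Across the 3 groups, 9 of the 10 members passed the F-test of limma at an unadjusted p under 0.05, which 21.3% of all genes tested did. The exception was H2-Eb1 (adjusted p = 0.24). After Benjamini-Hochberg adjustment over all genes, H2-DMb1 (adjusted p = 0.017), H2-Aa (0.026) and H2-Ab1 (0.032) stayed under 0.05, against 2.53% of all genes. The adjusted values of the other members ran from 0.053 to 0.24.

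**Figure D1:**
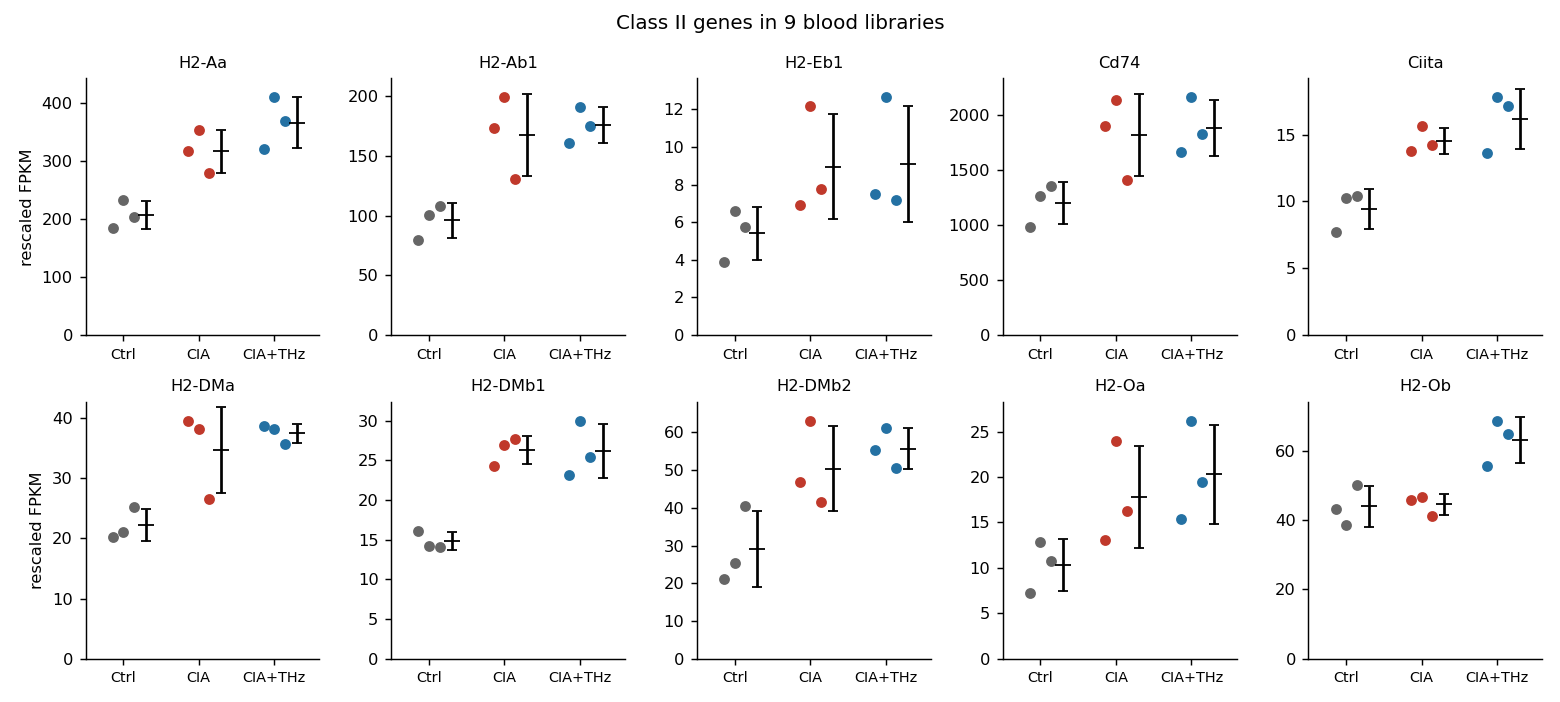
Rescaled FPKM of the 10 class II genes (y axis, linear from 0, own scale per panel) in the 3 libraries of each group (x axis). Points are libraries, and the bar beside them is the mean ± SD. For 9 genes every CIA library lies above every Ctrl library, whereas the CIA libraries of H2-Ob lie among those of Ctrl.

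The comparison of CIA with Ctrl asks how class II transcripts in blood stand in arthritic mice. The members were higher in CIA, apart from H2-Ob. The 9 others were 1.51- to 1.77-fold higher, all with an unadjusted p under 0.05 (limma) and all with the 3 CIA libraries above the 3 Ctrl libraries. Among all genes tested, 8.85% were higher at that p and 11.8% had the 3 CIA libraries above. In bulk blood, more cells of a type and more RNA per cell cannot be told apart.

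H2-Aa, the alpha chain of the A molecule, had levels of 185, 234 and 203 in Ctrl and 318, 354 and 280.4 in CIA. H2-Ab1, its beta chain, had 79.4, 101 and 108 in Ctrl and 174, 199 and 131 in CIA. Both chains were thus higher in every CIA mouse than in any Ctrl mouse. The log2 fold change was 0.62 ± 0.14 (SE, limma adjusted p = 0.11) for H2-Aa and 0.79 ± 0.19 (adjusted p = 0.12) for H2-Ab1. H2-Eb1, the beta chain of the E molecule, had 3.87, 6.62 and 5.76 in Ctrl and 6.93, 12.2 and 7.79 in CIA, where 1 library stood well above the others, and its log2 fold change was 0.71 ± 0.29 (limma adjusted p = 0.28).

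Cd74, the chaperone of all class II dimers, had levels of 983, 1263 and 1357 in Ctrl and 1906, 2139.7 and 1414 in CIA. The third CIA library lay just above the highest Ctrl library, and the log2 fold change was 0.59 ± 0.22 (limma adjusted p = 0.24). Ciita had 7.72, 10.3 and 10.4 in Ctrl and 13.8, 15.6 and 14.2 in CIA, a log2 fold change of 0.63 ± 0.17 (limma adjusted p = 0.15). The Ciita groups did not overlap.

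H2-DMa, the alpha chain of the peptide editor H2-DM, had levels of 20.3, 21.1 and 25.2 in Ctrl and 39.5, 38.2 and 26.5 in CIA (log2 fold change 0.63 ± 0.19, limma adjusted p = 0.17). H2-DMb1, 1 of its beta chains, had 16.1, 14.2 and 14.1 in Ctrl and 24.3, 26.9 and 27.7 in CIA. This was the most uniform difference among the members, with a log2 fold change of 0.83 ± 0.13 (limma adjusted p = 0.061). H2-DMb2, the other beta chain, had 21.2, 25.5 and 40.4 in Ctrl and 46.8, 63.0 and 41.5 in CIA, so that its groups nearly touched (0.83 ± 0.26, limma adjusted p = 0.19).

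The H2-O pair did not move together. H2-Oa, the alpha chain of this H2-DM inhibitor, had levels of 7.28, 12.9 and 10.8 in Ctrl and 13.02, 23.98 and 16.3 in CIA (log2 fold change 0.77 ± 0.29, limma adjusted p = 0.24). H2-Ob, its beta chain, had 43.3, 38.5 and 50.3 in Ctrl and 45.7, 46.7 and 41.2 in CIA. The H2-Ob groups overlapped fully, and its log2 fold change was 0.02 ± 0.13 (limma adjusted p = 0.95), with a 95% interval from -0.29 to 0.34.

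The study's criterion asked for an unadjusted p under 0.05 together with a log2 fold change beyond ±0.67. By it, 5 members rose in CIA (H2-Ab1, H2-Eb1, H2-DMb1, H2-DMb2 and H2-Oa), and no member fell. Of all genes tested, 4.79% were higher and 4.25% lower by this criterion. H2-Aa, Cd74, Ciita and H2-DMa fell between log2 fold changes of 0.59 and 0.63, short of the fold threshold. The count rests on single libraries: it was 1 without the first Ctrl library, which was the lowest of the 9 libraries for 8 members, and 1 without the second CIA library, which was the highest of its group for 8 members. In both cases H2-DMb1 was the member that still passed. No member reached an adjusted p under 0.05, which 0.154% of all genes did, whereas H2-Aa, H2-Ab1 and H2-DMb1 did (lowest 0.011) when all 3 groups shared 1 limma fit, as did 3.83% of all genes in that fit.

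**Figure D2:**
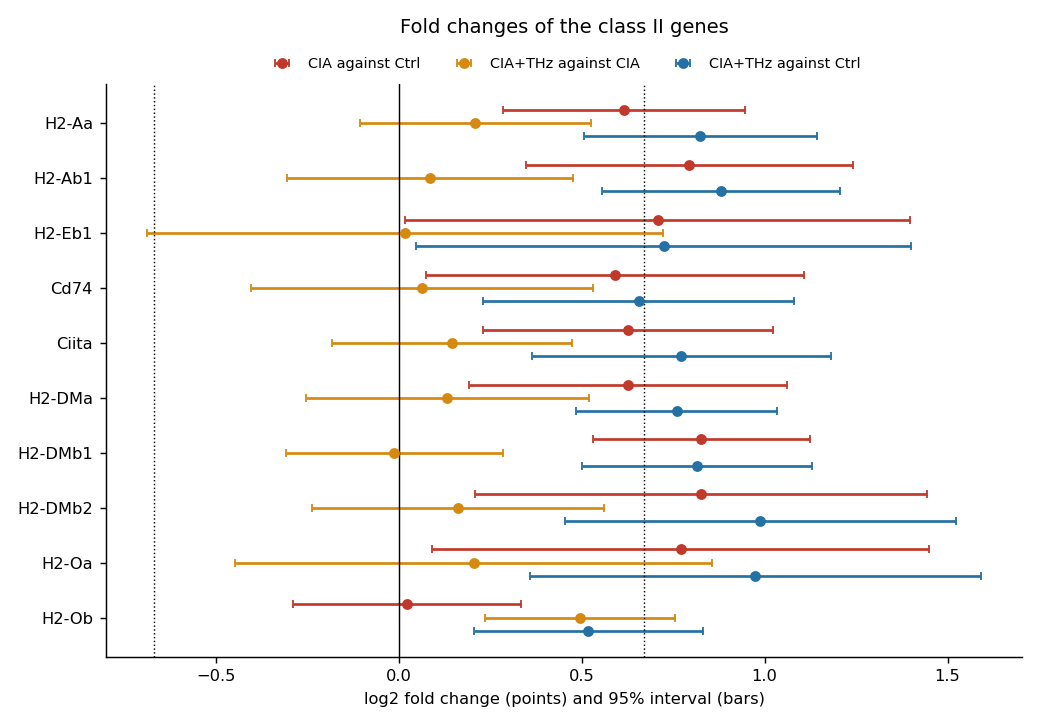
Log2 fold changes of rescaled FPKM (x axis, points) with their 95% intervals from limma (bars) for each gene (y axis) in 3 comparisons of 3 against 3 libraries, with dotted lines at ±0.67. Against Ctrl, 9 genes lie above 0 in both CIA and CIA+THz, while H2-Ob lies near 0 for CIA against Ctrl and at 0.50 for CIA+THz against CIA.

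The comparison of CIA+THz with CIA asks whether class II transcripts stood differently after irradiation of arthritic mice. For the 9 members other than H2-Ob the log2 fold changes were small, from -0.01 to 0.21, with unadjusted p from 0.16 to 0.96, and their libraries overlapped. H2-Aa had levels of 321, 410.4 and 369 in CIA+THz, and its difference from CIA had a 95% interval from -0.11 to 0.53. H2-Ab1 had 161, 191 and 175 (interval -0.31 to 0.48), and Cd74 had 1666, 2163 and 1827 (interval -0.40 to 0.53). These intervals leave room for changes in either direction, and most widely for H2-Eb1, with 7.49, 12.6 and 7.18 and an interval from -0.69 to 0.72.

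The regulator and the editors were as close between the groups. Ciita had levels of 13.6, 17.8 and 17.1 in CIA+THz (log2 fold change 0.14 ± 0.14), and H2-DMa had 38.6, 38.2 and 35.7 (0.13 ± 0.16). H2-DMb1 had 23.1, 29.9 and 25.5 and the smallest difference in size of the 10 members (-0.01 ± 0.12). H2-DMb2 had 55.3, 61.3 and 50.5 (0.16 ± 0.17), and H2-Oa had 15.4, 26.1 and 19.4 (0.20 ± 0.27).

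H2-Ob alone of the members had its 3 CIA+THz libraries above the 3 CIA libraries, an order found in 9.38% of all genes tested. Outside the members, the class II loci H2-Eb2 (log2 fold change 0.46 ± 0.18) and H2-Ea-ps (0.34 ± 0.17) had the same order. So did 7 of 10 T cell markers and 4 of 12 B cell markers. The latter were Pax5 (0.61 ± 0.16), Fcer2a (0.60 ± 0.13), Cr2 (0.60 ± 0.20) and Ebf1 (0.37 ± 0.20). The levels of H2-Ob were 55.6, 68.5 and 64.7, against at most 46.7 in CIA and 50.3 in Ctrl. The log2 fold change from CIA to CIA+THz was 0.50 ± 0.11 (1.41-fold, limma adjusted p = 0.21), and 5.89% of all genes were higher at an unadjusted p under 0.05. It was below the fold threshold, so that no member passed the criterion in either direction, compared with 2.94% of all genes higher and 1.6% lower. No gene of the 12366 reached an adjusted p under 0.05 in this comparison (0%), while 1634 were under 0.05 unadjusted. On the FPKM as deposited H2-Ob passed the criterion (0.77), but there the median of all genes was itself shifted by 0.27 between the groups.

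CIA+THz against Ctrl shares its control libraries with the first comparison and its CIA+THz libraries with the second. All 10 members were higher at an unadjusted p under 0.05 and had the 3 CIA+THz libraries above the 3 Ctrl libraries, which held for 8.39% and 11.9% of all genes. By the criterion 8 members rose, and 4.64% of all genes were higher and 3.24% lower. The log2 fold changes of the 8 were 0.82 ± 0.14 for H2-Aa, 0.88 ± 0.14 for H2-Ab1, 0.72 ± 0.29 for H2-Eb1, 0.77 ± 0.17 for Ciita, 0.76 ± 0.12 for H2-DMa, 0.81 ± 0.13 for H2-DMb1, 0.99 ± 0.23 for H2-DMb2 and 0.97 ± 0.26 for H2-Oa. Cd74 (0.66 ± 0.18) and H2-Ob (0.52 ± 0.13) were under the fold threshold. Adjusted p-values ran from 0.066 to 0.25, and 0.105% of all genes were under 0.05. With all 3 groups in 1 limma fit, H2-Aa, H2-Ab1 and H2-DMb1 were under 0.05 here too (lowest 0.031), with 0.841% of all genes.

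Ratios between genes of the same library do not depend on the scaling. H2-DMb1 over H2-Ob was 0.371, 0.369 and 0.28 in Ctrl, 0.531, 0.576 and 0.672 in CIA, and 0.416, 0.437 and 0.394 in CIA+THz. The 3 groups did not overlap, with Ctrl lowest and CIA highest. The mean log2 difference was 0.81 for CIA minus Ctrl and -0.51 for CIA+THz minus CIA, each with p = 0.1 in an exact two-sided permutation test (adjusted p = 0.26 over 36 ratio comparisons), the smallest p that 3 against 3 libraries allow. H2-Oa over H2-Ob, the pair that forms H2-O, averaged 0.239 ± 0.086 in the Ctrl libraries (SD, n = 3), with 0.398 ± 0.11 for CIA and 0.319 ± 0.055 for CIA+THz, and its groups overlapped.

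Cd74 over H2-Ab1 was 12.4, 12.6 and 12.5 in Ctrl and 10.99, 10.8 and 10.8 in CIA. It was lower in every CIA library, by 0.20 on the log2 scale (exact permutation p = 0.1, adjusted p = 0.26), and was 10.4, 11.3 and 10.4 in CIA+THz. H2-Aa over H2-Ab1, H2-Eb1 over H2-Ab1, Ciita over H2-Ab1 and H2-DMa over H2-Oa overlapped between the groups in all 3 comparisons. Their mean log2 differences were between -0.22 and 0.12.

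**Figure D3:**
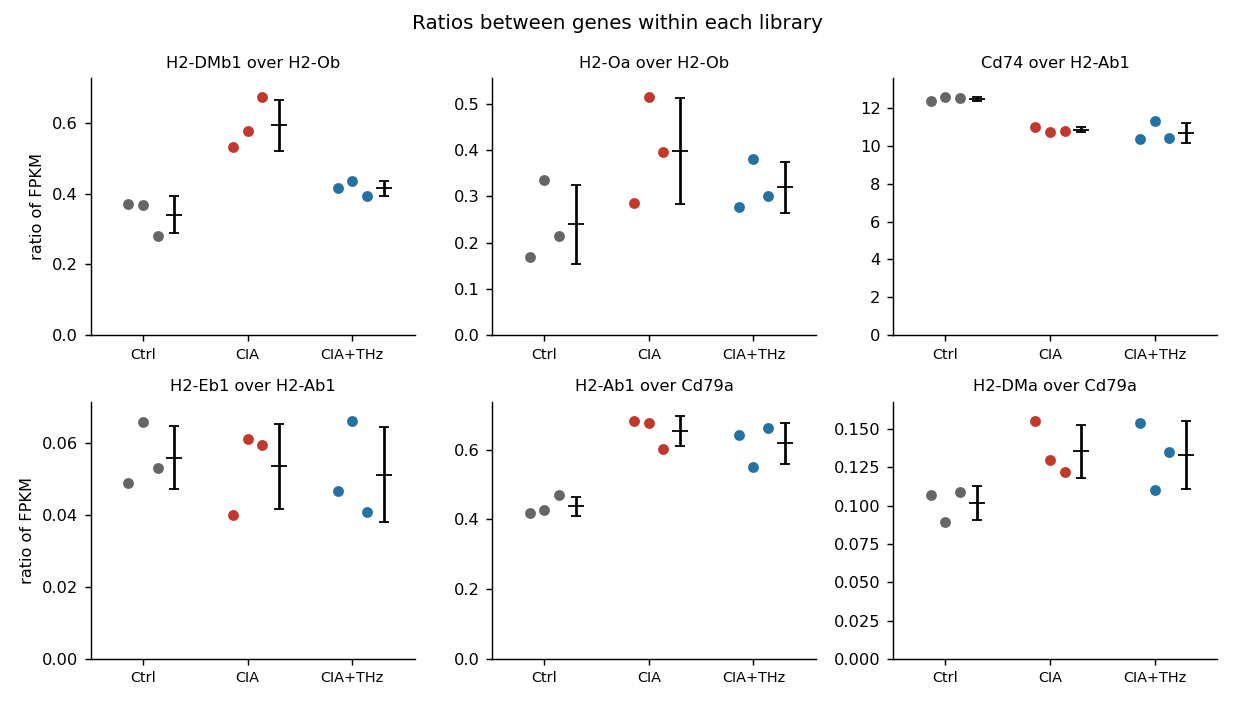
Ratios of FPKM of 2 genes within a library (y axis, linear from 0, own scale per panel) in the 3 libraries of each group (x axis), with mean ± SD beside them. H2-DMb1 over H2-Ob separates the 3 groups, and H2-Ab1 over the B cell gene Cd79a is higher in both arthritic groups than in Ctrl.

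Class II genes were set beside markers of the blood cells that make them. The 12 B cell markers had a summed level of 529 to 639 in Ctrl, 569 to 743 in CIA and 683 to 890 in CIA+THz. Their median log2 fold change was 0.19 for CIA against Ctrl, 0.33 for CIA+THz against CIA and 0.53 in CIA+THz against Ctrl. The medians of the 10 class II genes in the same order were 0.67, 0.14 and 0.79, and those of all genes tested were -0.01, 0.03 and 0.04. The 0.14 moved with single libraries and with the scaling. It was 0.03 without the third CIA library, 0.05 without the second CIA+THz library and 0.24 without the second CIA library, and 0.41 on the FPKM as deposited. Of the B cell markers Blk, a B cell kinase, passed the criterion in CIA against Ctrl (0.81 ± 0.29), none did in CIA+THz against CIA, and Blk (0.74 ± 0.26), Pax5 (0.78 ± 0.23) and Fcer2a (1.03 ± 0.21) did in CIA+THz against Ctrl. The part of B cell number in the class II levels was not tested beyond the following ratios.

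Cd79a, a chain of the B cell receptor complex, was used as the denominator for 5 members. It is 1 of the 12 B cell markers, whose log2 fold changes in CIA against Ctrl ran from -0.45 to 0.81. Cd79a was at 0.22 there and Cd79b at 0.41. No other B cell gene was used as a denominator, so the order of the libraries is shown for Cd79a only. H2-Ab1 over Cd79a was 0.417, 0.426 and 0.469 in Ctrl, 0.682, 0.676 and 0.603 in CIA and 0.642, 0.551 and 0.662 in CIA+THz. Every library of the arthritic mice lay above every Ctrl library. H2-Aa, Cd74 and H2-DMa over Cd79a were ordered in the same way, with mean log2 differences from Ctrl of 0.40, 0.38 and 0.41 in CIA and 0.44, 0.27 and 0.38 in CIA+THz (exact permutation p = 0.1 each, adjusted p = 0.26). H2-Oa over Cd79a overlapped between CIA and Ctrl (0.56, exact permutation p = 0.2) and not between CIA+THz and Ctrl (0.60, p = 0.1). For all 5 the groups CIA+THz and CIA overlapped, with differences between -0.10 and 0.04. Rescaled so that the 12 B cell markers had the same median ratio in each library, 0 members passed the criterion in either comparison with Ctrl, compared with 2.49% of all genes higher for CIA and 1.14% for CIA+THz. The members' median log2 fold change was then 0.46 for CIA against Ctrl, where H2-DMb1, H2-DMb2 and H2-Ab1 were at 0.62, 0.62 and 0.59. It was 0.31 for CIA+THz against Ctrl and -0.14 for CIA+THz against CIA. This scaling was chosen after the data had been seen. It moved the median of all genes by -0.2 for CIA against Ctrl, by -0.46 for CIA+THz against Ctrl and by -0.26 for CIA+THz against CIA, close to the move of the members' median.

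Markers of classical monocytes moved with the CIA group. Their summed level was 3116 to 3473 in Ctrl, 5436 to 6013 in CIA and 3595 to 3876 in CIA+THz. Of the 10, 7 rose in CIA, among them Fn1 (1.67 ± 0.18) and Csf1r (1.07 ± 0.12), and Chil3, Ms4a6d and Fn1 were lower by the criterion in CIA+THz against CIA (-0.82, -0.76 and -0.82). Beside these, the log2 fold changes of the 9 class II genes other than H2-Ob were -0.01 to 0.21 in CIA+THz against CIA. The 8 patrolling monocyte markers had a median log2 fold change of 0.20 in CIA against Ctrl, with 6 higher and 2 lower. Their median was 0.34 in CIA+THz against CIA, with 7 higher and 1 lower. It was 0.67 in CIA+THz against Ctrl, with 6 higher and 2 lower, and 4 rose by the criterion there. The 8 neutrophil markers summed to 12382 to 20912 in Ctrl, 14225 to 18405 in CIA and 10529 to 11982 in CIA+THz. All 10 T cell markers had higher values in CIA+THz than in CIA (median log2 fold change 0.34). Of these, 6 had an unadjusted p under 0.05 (limma), and Cd5 passed the criterion (0.79 ± 0.21). All 10 were lower in CIA than in Ctrl (median -0.28, 3 at that p). In CIA+THz against Ctrl their median was 0.05, with 0 at that p. The 8 conventional dendritic cell markers summed to 141 to 163 in Ctrl, 146 to 172 in CIA and 179.9 to 206 in CIA+THz, most of it from Ccr7, a homing receptor that T and B cells also carry, at 118 to 182. Of the others, Itgax was at 9.2 to 24 and the defining marker Zbtb46 at 0 to 0.205. Of the 7 conventional dendritic cell markers tested, 6 were higher and 1 lower in CIA than in Ctrl (median log2 fold change 0.61). In CIA+THz against CIA, 1 was higher and 6 were lower (median -0.36). In CIA+THz against Ctrl, 6 were higher and 1 was lower (median 0.41). By the criterion, Flt3 rose (1.65 ± 0.54) and Xcr1 fell (-1.02 ± 0.38) in CIA against Ctrl. Both were at levels of at most 2.14 in every library of these 2 groups. The 6 plasmacytoid markers summed to 26.2 to 35.4 in Ctrl, 25.6 to 34.5 in CIA and 23.0 to 32.1 in CIA+THz, with Bst2 at 14.4 to 24.3, Klk1 listed at 0 in all 9 libraries, and Ccr9 lower by the criterion in CIA (-1.33 ± 0.35). Xcr1 and Ccr9 were lower in CIA+THz than in Ctrl as well (-1.39 ± 0.41 and -0.87 ± 0.30). Of 8 markers of plasma cells, which lose class II expression as they differentiate, 4 fell in CIA, with Jchain by 3.53 on the log2 scale. The part of these cells in the class II levels was not tested.

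The genes that act beside class II were followed by list. Of 10 endosomal proteases and cofactors, 4 rose in CIA: Ctss, the protease that removes the invariant chain (1.12 ± 0.14), Ifi30, a thiol reductase that unfolds antigens (1.09 ± 0.16), Ctsh (0.95 ± 0.12) and Psap (0.81 ± 0.11). The median of this list was 0.52, and in CIA+THz against CIA all 10 genes had negative values with a median of -0.38, without any passing the criterion. Ctss was at 114, 122 and 109 in Ctrl, 284, 206 and 266 in CIA and 215, 204 and 208 in CIA+THz. The libraries of Ctss in the arthritic groups lay above those of Ctrl and overlapped with each other. The difference between this list and the class II members was not tested.

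None of the 10 transcription factors of class II promoters passed the criterion in any comparison. Spi1, the most abundant of them, had log2 fold changes of 0.58 ± 0.15 in CIA against Ctrl and -0.41 ± 0.15 in CIA+THz against CIA. Rfx5, a subunit of the X box factor RFX, was low (0.896 to 2.7) and had 0.33 ± 0.42 and 0.34 ± 0.30. In CIA against Ctrl, 6 of the 10 were higher and 4 lower. The lower ones were Creb1 (-0.54 ± 0.14), Nfyb (-0.53 ± 0.17), Nfya (-0.42 ± 0.14) and Irf4 (-0.38 ± 0.19), each with every CIA library below every Ctrl library. Nfyc, like Nfya and Nfyb a subunit of NF-Y, was higher (0.33 ± 0.11). On the interferon-gamma route to Ciita, Socs1 (1.03 ± 0.35), a target and inhibitor of this route, rose in CIA, and Irf1 was at 0.64 ± 0.11 below the fold threshold. Ifng itself was listed at 0 in 6 libraries and was at most 1.15, and no gene of this list of 8 passed in CIA+THz against CIA.

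Among other class II loci, H2-Eb2 was 4.5, 3.21 and 7.39 in Ctrl, 9.09, 7.96 and 6.36 in CIA and 11.9, 9.32 and 10.99 in CIA+THz, and rose in CIA+THz against Ctrl (1.15 ± 0.30, limma adjusted p = 0.14). H2-Ea-ps, the alpha chain locus of the E molecule that is annotated as a pseudogene, was between 3.5 and 7.87 and passed in no comparison. Of 8 turnover and partner genes, Cd40, a receptor for T cell help, rose in CIA (0.95 ± 0.31). Cd80, a costimulatory ligand, fell in CIA (-1.29 ± 0.32). In CIA+THz against Ctrl, Cd40 rose (0.86 ± 0.27) and Cd80 fell (-1.53 ± 0.38) as well. Cd83, which stabilizes surface class II, rose in CIA+THz against Ctrl (0.80 ± 0.27). The 2 ubiquitin ligases March1 and March8, of which March1 removes class II from the surface, passed in no comparison.

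Class I genes offered a second antigen presentation pathway. Of 9 class I genes, 0 passed the criterion in CIA against Ctrl, with a median log2 fold change of 0.45, and 7 were higher at an unadjusted p under 0.05. H2-K1 was at 0.44 ± 0.17 and H2-D1 at 0.45 ± 0.18. The class I median was -0.10 in CIA+THz against CIA and 0.37 in CIA+THz against Ctrl. The difference between class I and class II was not tested.

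**Figure D4:**
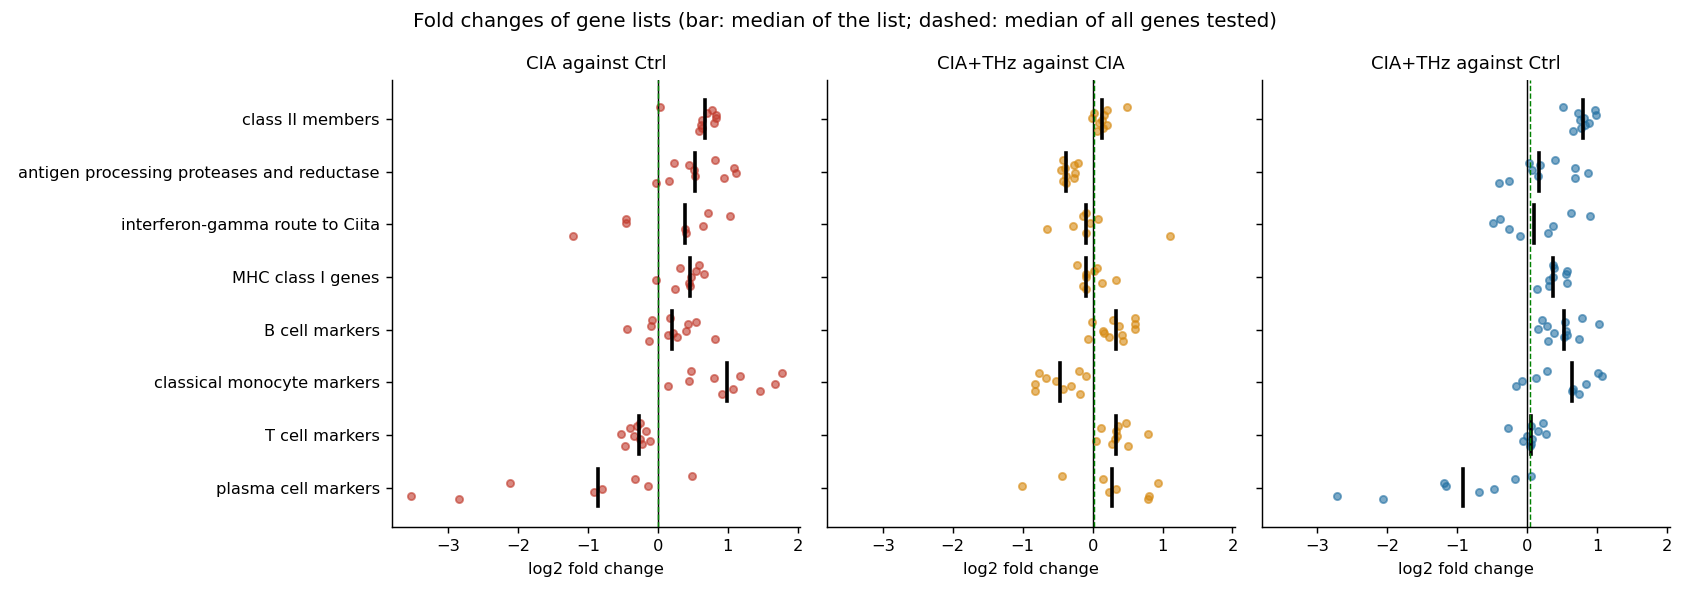
Log2 fold changes of rescaled FPKM (x axis) of the genes of 8 lists (y axis) in the 3 comparisons. Points are genes, black bars the list medians and the green dashed line the median of all genes tested. The class II genes lie right of 0 in both comparisons with Ctrl and near 0 in CIA+THz against CIA, where monocyte and processing genes lie left of 0.

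Libraries of a group also differed from each other. The second CIA+THz library was the highest of all 9 for 7 members, and the second CIA library for 2. In CIA the third library was the lowest of its group for 6 members and the first for 4, and H2-DMb1 was highest in the third. The third library had a summed level of the members of 2000.0 compared with 2588 and 2919. The B cell markers were also lowest in that library (569, compared with 650.3 and 743). In the second CIA+THz library both sums were the highest of the 9, at 3019 for the members and 889.8 for the B cell markers. Whether mice or libraries differed there was not tested.

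The profile over the 9 libraries of H2-Aa, H2-Ab1, H2-Eb1 and Cd74, as the mean of their centred log2 levels, was compared with each of 9738 other genes of a mean level of at least 1. The likeness was the root mean square difference of the centred values, and all points share the same libraries and scaling. The closest 8 genes were Fcmr, a receptor for IgM (0.121), Uap1l1 (0.126), Med8, a Mediator subunit (0.127), Srpk3, a protein kinase (0.152), Cd79b, the partner of Cd79a (0.155), Fastk (0.158), Bcl11a, a transcription factor (0.161), and Gpr180 (0.166). Of the members left out of the profile, Ciita was at 0.123, with 1 gene closer, and H2-DMa at 0.176, with 11 genes closer. H2-Oa (0.206), H2-DMb2 (0.21) and H2-DMb1 (0.228) followed, and H2-Ob was the farthest, at 0.327 with 823 genes closer.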

How the data were processed

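The authors extracted total blood RNA from 9 mice, 1 library each, with the TruSeq RNA kit V2 and sequenced it as paired ends of 150 bases on an Illumina HiSeq instrument. The submitters' processing notes name bcl2fastq 2.0, HISAT2, StringTie, DESeq2 and mm10. The authors deposited FPKM values for 20926 gene symbols, 1 column per library. Depth cannot be read from FPKM, and low values did not fall on whole-read steps (14.9% to 22.7% of them were within 0.05 of a whole step). Groups follow the sample labels. The sources used here give no batch, and the p-values measure the spread between the 3 mice of a group.

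Each FPKM column was divided by its median-of-ratios factor taken from the 10312 genes that no library has at 0. Genes with a mean of at least 0.1 were kept, and log2(rescaled FPKM + 0.1) was tested with limma 3.58.1 in R 4.3.3 (eBayes with trend), with an F-test over the 3 groups and each pair of groups fitted on its 6 libraries. Fold changes are on that scale and understate the change of low genes. The steps were tested on simulated data. Ratios were tested by exact two-sided permutation in Python 3.11.15, and transcripts were aligned with Biopython. Same-numbered libraries of different groups did not deviate together (correlations from -0.052 to 0.031), so numbers were not taken to pair mice.

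The members and lists were chosen with earlier results of these data known. Every member is named. Of the other pathway lists, mainly genes past the criterion or the most abundant were named, together with some others. Of the cell type lists, only those beside which a class II result stands were named. Symbols were matched to GENCODE vM21 on GRCm38 and promoters to RefSeq. H2-Ea, H2-Pa, Marchf1, Marchf8 and Ahsp had no row under these symbols, and March1 and March8 did. Alternatives were other pseudocounts, filters and scalings, no trend, a replicate block, an adjusted p in the criterion, 1 joint fit and leaving out each library. Some genes of the lists are not reported here by name.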

Additional observations from a re-analysis of the deposited data

How the results depend on the processing

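In CIA against Ctrl the 5 members past the criterion became 3 with no filter on low values and 3 with no trend, as H2-Eb1 and H2-Oa went to p-values between 0.057 and 0.07. Leaving out 1 library gave 1 to 6 members there, 7 to 10 across the 3 groups, 0 to 0 in CIA+THz against CIA and 6 to 9 in CIA+THz against Ctrl. With an adjusted p in the criterion the counts were 3 across the 3 groups and 0 in each pair of groups. With the scaling on the B cell markers they were 3 across the 3 groups, 0 for both arthritic groups against Ctrl and 0 for CIA+THz against CIA, where the median log2 fold change of the members went from 0.14 to -0.14 and that of all genes moved by -0.26 as well. In CIA against Ctrl the members' median was 0.46 under this scaling, and 309 of all genes were higher by the criterion, compared with 592. On the FPKM as deposited 1 member, H2-Ob, passed in CIA+THz against CIA, where of all genes 1133 were higher and 66 lower by the criterion, compared with 363 and 198 after rescaling. The pseudocounts of 1 and 0.01, the filter at a mean of 1 and the joint fit kept every count within 1.5 times that reported. With the replicate block, 10, 5, 0 and 8 members passed across the 3 groups and in the pairs CIA to Ctrl, CIA+THz to CIA and CIA+THz to Ctrl. Same-numbered libraries share only a number. In CIA+THz against Ctrl, H2-Eb1 no longer passed without Ctrl library 1 or 3 or CIA+THz library 1 or 2, nor Ciita without the first Ctrl library. The direction of H2-Ob in CIA against Ctrl, near 0, was -0.18 with the B cell scaling and between -0.07 and 0.12 when a library was left out. The log2 ratios between genes moved by less than 1 SD under each alternative. Apart from what the construction of an alternative shows, the causes were not tested. Depth is unknown, and with 3 mice a group the precision of all members is limited.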
